A study of Mus musculus with 22 samples.

Results

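*Sirpa*, *Cd4*, *Esam*, *Cdh17* and *Clec12a* encode surface proteins used to recognise or to subdivide type 2 conventional dendritic cells (cDC2s). They were taken by gene symbol and are 5 of the 34047 genes counted in 16 bulk RNA-seq libraries. In 6 ATAC-seq libraries, which measure how open the chromatin is, 46 of 177956 counted windows of 150 bases had one of these genes as the closest gene within 50000 bases, and 60 did so or lay within 10000 bases of one. All mice were Tbx21RFP-cre reporters, homozygous for a knock-in at *Tbx21*, the gene of the transcription factor T-bet, naive, of both sexes (matched) and 6 to 10 weeks old. Cells positive for MHCII and CD11c were gated, and those with Ly6C, CD64 or a lineage marker (CD90 and CD3 among them) were left out. Among them, XCR1+ CD11b- cells were taken as cDC1s (the other conventional lineage), and XCR1- CD11b+ cells as T-bet+ cDC2s (RFP+) or T-bet- cDC2s (RFP-). One sentence of the study's methods gives the 2 RFP gates the other way round, and the sample labels were followed here. RNA came from spleen (3 libraries of each subset) and mesenteric lymph node (MLN; 3 cDC1, 2 T-bet- cDC2 and 2 T-bet+ cDC2), each from cells of 2 mice pooled, and ATAC-seq from 50000 spleen cells with 2 libraries of each subset. All groups, cDC1s included, carry the knock-in, and mice without it are not among these libraries.

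These 5 proteins work in different ways. SIRPα is an inhibitory receptor that binds CD47 on neighbouring cells and recruits tyrosine phosphatases to its cytoplasmic tail, and CLEC12A is a C-type lectin receptor that inhibits through a similar tail motif. CD4 binds MHC class II and is best known as the T cell coreceptor, but many splenic cDC2s of the mouse carry it too, while ESAM (an immunoglobulin-type adhesion molecule of endothelium and platelets) and cadherin-17 (first described in intestine and liver, also found on B cells) join cells to one another. In mouse spleen, ESAM on cDC2s is known to depend on Notch2 signalling.

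The RNA libraries held 20993220 to 29006549 counts each and the ATAC-seq libraries 7270164 to 10081555 reads in windows. Levels of genes and of windows are given as CPM (counts per 1000000 in the library, for ATAC-seq per 1000000 reads in windows) after TMM scaling, a correction for library composition, and fold changes as log2 ± SE from edgeR's quasi-likelihood test with Benjamini-Hochberg adjustment over all genes tested. A gene was called at an adjusted p under 0.05. The labels of the spleen RNA libraries held: *Tbx21* ranged from 17.2 to 24.9 CPM in spleen T-bet+ cDC2s and from 0.289 to 2.38 CPM in spleen T-bet- cDC2s, and the summed level of 10 cDC1 markers was 11134 to 13086 CPM in spleen cDC1s against 675 to 922 CPM in the 6 spleen cDC2 libraries. In MLN, *Tbx21* ranged from 2.93 to 7.19 CPM in T-bet+ cDC2s, from 0.538 to 0.918 CPM in T-bet- cDC2s and from 0.243 to 0.390 CPM in cDC1s, and the cDC1 sum was 5379 to 10964 CPM in cDC1s against 653 to 1005 CPM in cDC2s. No such check was made on the ATAC-seq libraries. As a set, the name "cDC2 surface markers" held in part: *Sirpa* and *Cd4* were far higher in both cDC2 subsets than in cDC1s in both tissues, *Clec12a* was as high in spleen cDC1s as in spleen T-bet- cDC2s, *Cdh17* was higher in spleen cDC1s than in spleen T-bet- cDC2s, and *Esam* in MLN was at a like level in all 3 subsets. In bulk samples, fewer cells carrying a transcript and less of it per cell cannot be told apart. The study's methods call the RNA libraries of a group biological replicates.

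**Figure D1:**
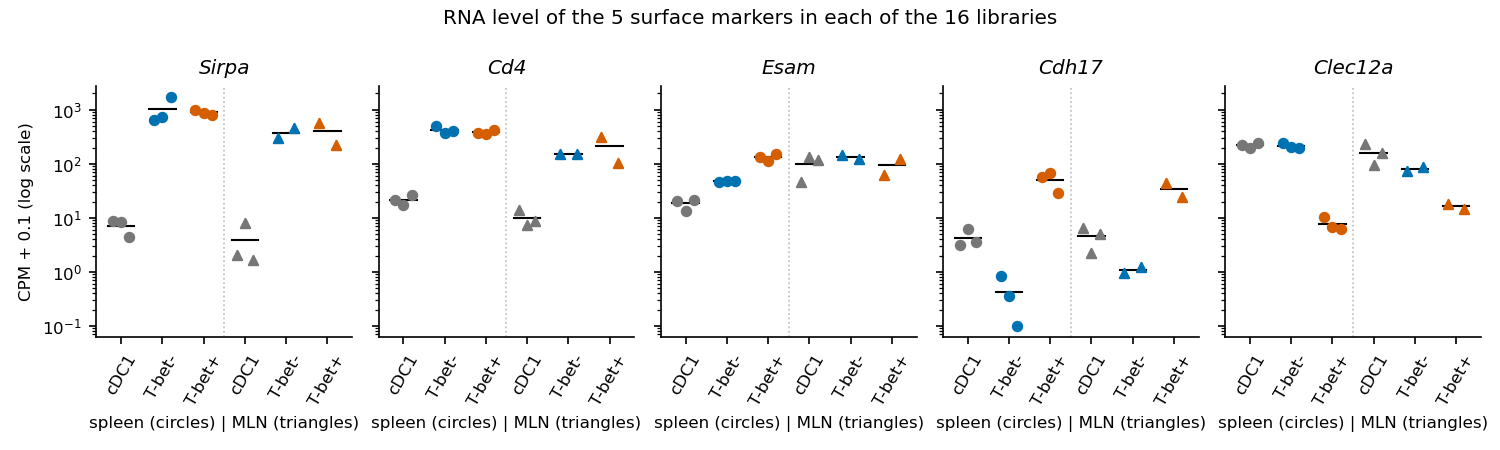
Level of each gene in every RNA library (circles for spleen, triangles for MLN; CPM + 0.1 on a log10 axis) by tissue and subset, with the mean of each group as a bar. *Sirpa* and *Cd4* separate both cDC2 subsets from cDC1s, *Cdh17* is highest in T-bet+ cDC2s, *Clec12a* is lowest there, and *Esam* separates the subsets in spleen but not in MLN.

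Between the cDC2 subsets of spleen, T-bet+ cDC2s had more *Esam* and *Cdh17* and less *Clec12a* than their T-bet- counterparts, while *Sirpa* and *Cd4* did not pass the test. Thus 3 of the 5 genes were called, beside 774 of 14377 genes (5.38%): 2 were higher (1.95% of all genes) and 1 was lower (3.44%). For the same 3 genes the 2 groups of libraries did not overlap, as was so for 27.0% of all genes tested. Against cDC1s, all 5 genes were called in spleen T-bet+ cDC2s (18.2% of all genes), 4 of them higher (9.97%) and 1 lower (8.20%). In spleen T-bet- cDC2s 4 of 5 were called (15.9% of all genes), 3 higher (9.65%) and 1 lower (6.20%). The genes whose libraries did not overlap were 5 and 4 of the 5 there, beside 39.9% and 29.8% of all genes. In MLN, none of the 5 was called between the cDC2 subsets, and neither was any other of the 15298 genes (0%), although 1444 had an unadjusted p under 0.05 and DESeq2 called 328 genes (1.98%), *Cdh17* and *Clec12a* among them. *Cdh17* was also called there with the newer quasi-dispersion method of edgeR (0.183% of all genes) and in a fit of the 2 cDC2 subsets alone (0.0961%). Against MLN cDC1s, 4 of 5 were called in T-bet+ cDC2s (6.22% of all genes), 3 higher (4.11%) and 1 lower (2.11%), and 2 of 5 in T-bet- cDC2s (5.79%), both higher (4.34%). In both of these comparisons 4 of the 5 did not overlap, beside 40.2% and 39.8% of all genes. The 3 comparisons within a tissue share libraries, so these counts are not independent of one another.

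**Figure D2:**
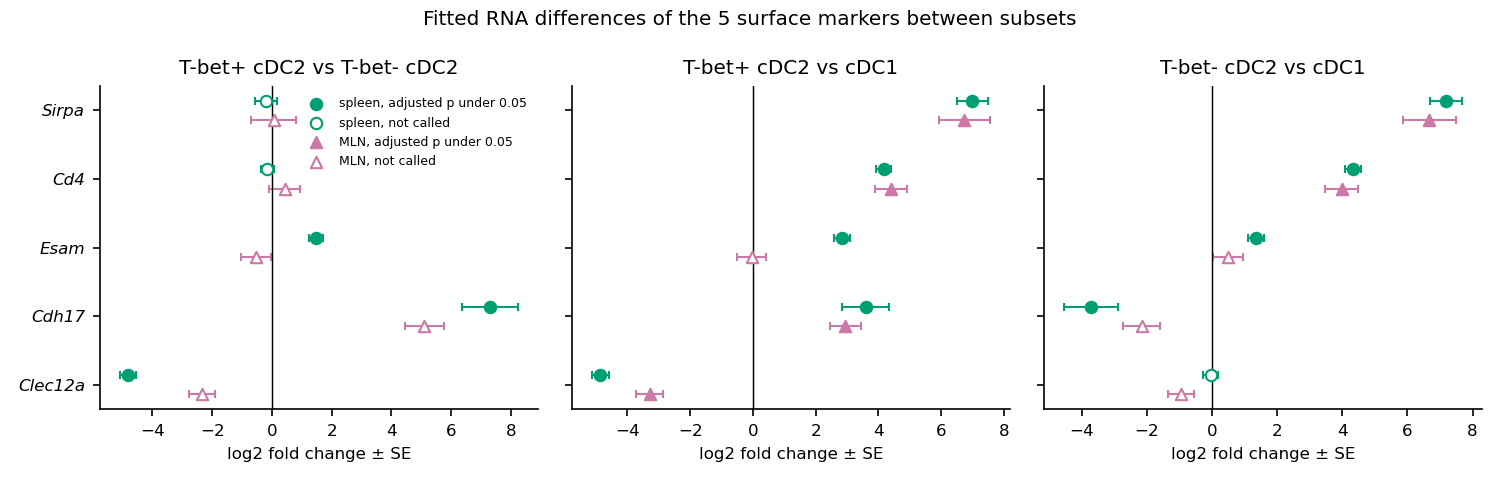
Log2 fold change ± SE of each gene (edgeR) for the 3 pairs of subsets, in spleen and in MLN, with filled points for an adjusted p under 0.05. *Sirpa* and *Cd4* lie near 0 between the cDC2 subsets of both tissues, and *Cdh17* and *Clec12a* lie on opposite sides of 0.

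*Sirpa* (ENSMUSG00000037902.18, chr2:129592835-129632228 on the plus strand of mm10) had 8.46, 8.40 and 4.30 CPM in the spleen cDC1 libraries. It had 638, 749 and 1690.0 CPM in spleen T-bet- cDC2s and 1002, 869 and 815 CPM in spleen T-bet+ cDC2s. Every cDC2 library was thus far above every cDC1 library, and the cDC2 groups overlapped because the third T-bet- library stood above the other 2. The log2 fold change against cDC1s was 6.99 ± 0.49 in T-bet+ cDC2s (adjusted p = 1.46e-05) and 7.18 ± 0.50 in T-bet- cDC2s (adjusted p = 1.39e-05), and both used the same cDC1 libraries. Between the cDC2 subsets it was -0.19 ± 0.38 (adjusted p = 0.823), and without T-bet- replicate 3 it was 0.29 (adjusted p = 0.543). Replicate 3 also stood apart from the other 2 T-bet- libraries in how its levels followed the GC content of the most GC-rich 100 bases of each transcript (Spearman correlation 0.27, against -0.46 and -0.31). Every spleen T-bet+ library had the same sign as replicate 3 (0.19 to 0.23), the only T-bet- library with it. With the sign of that correlation as a term, chosen after the data were seen, *Sirpa* was lower in T-bet+ cDC2s by a log2 fold change of -0.82 (adjusted p = 0.0384). That value therefore leaned mainly on replicate 3, the library in which *Sirpa* was highest.

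In MLN, *Sirpa* had 1.99, 7.98 and 1.57 CPM in cDC1s, 294 and 455 CPM in T-bet- cDC2s, and 579 and 219 CPM in T-bet+ cDC2s. The cDC2 groups overlapped again and both lay above all cDC1 libraries. Against cDC1s, it differed by a log2 fold change of 6.74 ± 0.81 in T-bet+ cDC2s (adjusted p = 0.00424) and 6.67 ± 0.81 in T-bet- cDC2s (adjusted p = 0.00425). Between the MLN cDC2 subsets it was 0.06 ± 0.75 (adjusted p = 0.99). The order of the 6 group means ran from spleen T-bet- cDC2s (1026 ± 578 CPM, SD, n = 3) and spleen T-bet+ cDC2s (895 ± 96.0 CPM, n = 3) through the MLN cDC2s to the cDC1s of spleen (7.06 ± 2.38 CPM, n = 3) and MLN (3.84 ± 3.59 CPM, n = 3), with the MLN means at 399 ± 255 CPM (T-bet+, n = 2) and 374 ± 114 CPM (T-bet-, n = 2). Within the spleen cDC2s, within the MLN cDC2s and between the cDC1s of the 2 tissues, neighbours in this order overlapped.

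Open chromatin at *Sirpa* also separated both cDC2 subsets from cDC1s. Of 13 windows, 7 were called for T-bet+ cDC2s and 8 for T-bet- cDC2s against cDC1s (at an adjusted p under 0.01 and a log2 fold change beyond 0.5), each of them higher than in cDC1s, and none was called between the cDC2 subsets. Over all windows tested, 23.0% were called for T-bet+ cDC2s and 17.9% for T-bet- cDC2s against cDC1s, in either direction. The window with the widest gap lay 741 bases before the start site (chr2:129592023-129592172, mm10, plus strand) and is shown because it was nearly closed in cDC1s. Capitals mark 2 matches to the C/EBP motif TTGCNNAA, the second read on the other strand.
Sirpa upstream window: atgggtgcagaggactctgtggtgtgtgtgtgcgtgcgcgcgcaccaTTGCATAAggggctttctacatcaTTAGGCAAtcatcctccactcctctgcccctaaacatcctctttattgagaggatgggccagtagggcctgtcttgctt
This window had 0.475 and 0.914 CPM in cDC1s, 15.9 and 15.7 in T-bet- cDC2s, and 12.7 and 9.41 in T-bet+ cDC2s. The cDC1 libraries were lowest and the cDC2 groups did not overlap, with T-bet- cDC2s higher. Its log2 fold change was 3.98 ± 0.38 (adjusted p = 8.73e-14) and 4.50 ± 0.37 (adjusted p = 4.26e-16) for T-bet+ and T-bet- cDC2s against the same cDC1s, and -0.51 ± 0.24 (adjusted p = 0.172) between the cDC2 subsets. Inside the gene, 4 windows of one intronic peak (2905 to 3287 bases after the start) were called higher in both cDC2 subsets than in cDC1s. The one at 3106 bases had 3.33 and 3.40, 7.40 and 8.81, and 14.6 and 12.3 CPM in the cDC1, T-bet- and T-bet+ groups, so the order of the cDC2 subsets was the reverse of that upstream. It was not called between the cDC2 subsets (0.73 ± 0.25, adjusted p = 0.0471). Groups of 2 ATAC-seq libraries can fail to overlap by chance. The share of all windows that did so was not counted, here or for the genes below.

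*Sirpa* was followed by some partners and relatives and not by others. Of 10 other genes of the SIRP family, CD47 and their signalling proteins, 6 were higher in each cDC2 subset than in cDC1s in spleen and none was lower, with a median log2 fold change of 1.901 (T-bet+) and 1.93 (T-bet-) beside 0.03 and -0.01 over all genes tested. The relatives *Sirpb1a* (8.90 ± 0.70 for T-bet+ and 9.36 ± 0.71 for T-bet- cDC2s), *Sirpb1b* (6.68 ± 0.40 and 7.41 ± 0.41) and *Sirpb1c* (8.14 ± 0.59 and 10.18 ± 0.61) had the widest gaps. Sirpb proteins lack the inhibitory tail and pair with the adaptor encoded by *Tyrobp*, which was also called higher (1.89 ± 0.28 and 2.17 ± 0.28). *Ptpn6*, the phosphatase SHP-1 that binds inhibitory tails, was higher too (1.91 ± 0.15 and 1.69 ± 0.15). These relatives are alike in sequence and counting kept only uniquely aligned reads, so their separate levels are uncertain. The ligand gene *Cd47* was not called in any spleen comparison and ranged from 117 to 397 CPM in cDC1s, 141 to 617 CPM in T-bet- cDC2s and 563 to 588 CPM in T-bet+ cDC2s. Between the cDC2 subsets *Sirpb1c* alone of the 10 was called, lower in T-bet+ cDC2s (-2.04 ± 0.39, adjusted p = 0.0164).

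*Cd4* (ENSMUSG00000023274.14, chr6:124864692-124888221, minus strand) had 21.3, 17.1 and 25.8 CPM in spleen cDC1s, 502, 370.1 and 409 CPM in spleen T-bet- cDC2s, and 379, 349 and 424 CPM in spleen T-bet+ cDC2s. The 2 cDC2 groups overlapped and both lay above every cDC1 library. Against cDC1s, its log2 fold change was 4.17 ± 0.24 in T-bet+ cDC2s (adjusted p = 5.32e-06) and 4.32 ± 0.24 in T-bet- cDC2s (adjusted p = 4.99e-06), and between the cDC2 subsets it was -0.15 ± 0.21 (adjusted p = 0.743). MLN cDC1s had 14.1, 7.20 and 8.49 CPM, MLN T-bet- cDC2s 148 and 154 CPM, and MLN T-bet+ cDC2s 314 and 105 CPM. The 2 T-bet+ libraries of MLN thus lay on either side of the T-bet- ones, and no MLN cDC2 library fell as low as a cDC1 library. By group mean, spleen T-bet- (427 ± 67.6 CPM, SD, n = 3) and T-bet+ cDC2s (384 ± 37.9 CPM, n = 3) came first, MLN T-bet+ (209.6 ± 148 CPM, n = 2) and T-bet- cDC2s (151 ± 4.15 CPM, n = 2) next, and the cDC1s of spleen (21.4 ± 4.37 CPM, n = 3) and MLN (9.93 ± 3.68 CPM, n = 3) last, and each of the first 2 pairs overlapped. In MLN the log2 fold change against cDC1s was 4.41 ± 0.51 in T-bet+ cDC2s (adjusted p = 0.00367) and 3.98 ± 0.51 in T-bet- cDC2s (adjusted p = 0.00515), and 0.43 ± 0.53 between the cDC2 subsets (adjusted p = 0.863).

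Since CD4 also marks helper T cells, T cell transcripts were read in the same libraries. The sum over 15 T cell markers was 10.1 to 25.0 CPM in spleen cDC1s, 23.1 to 36.4 CPM in T-bet- cDC2s and 39.6 to 43.1 CPM in T-bet+ cDC2s, and 37.1 to 242 CPM across the MLN libraries. Most of it was *Il7r* and *Cd5*, which myeloid cells can express. Of the genes that define T cells, *Cd3e* ranged from 0 to 0.457 CPM in spleen. *Cd3g* was at 0 in all spleen T-bet+ cDC2 libraries and at most 0.113 CPM elsewhere in spleen. *Thy1* (CD90, excluded by the sort) was at 0 in spleen cDC1s and T-bet+ cDC2s, and above 0 in at least 1 spleen T-bet- library. Of the 7 T cell markers tested, 0 were called between the spleen cDC2 subsets. In MLN the sum was 158 to 219 CPM in T-bet- and 81.6 to 242 CPM in T-bet+ cDC2s. Each of the 15 markers was above 0 in at least 1 library of every MLN group, and also of spleen T-bet- cDC2s. Of the 13 tested in MLN, 0 were called between the cDC2 subsets, as was so for all genes. The part of these markers in the *Cd4* levels was not tested.

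The chromatin at *Cd4* held 4 windows, fewer than at *Sirpa*. The one over the start site (28 bases before it, chr6:124888174-124888323, mm10, printed on the minus strand) is shown as the only *Cd4* window called in any comparison, and it held none of the 7 motifs searched.
Cd4 start window: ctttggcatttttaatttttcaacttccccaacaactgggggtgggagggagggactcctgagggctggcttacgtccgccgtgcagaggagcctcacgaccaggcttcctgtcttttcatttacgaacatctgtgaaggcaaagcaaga
It had 0.475 and 1.18 CPM in cDC1s, 1.97 and 2.02 in T-bet- cDC2s, and 2.94 and 3.97 in T-bet+ cDC2s. The 3 groups did not overlap, with T-bet+ cDC2s highest. It was called higher in T-bet+ cDC2s than in cDC1s (2.07 ± 0.49, adjusted p = 0.000445) but not in T-bet- cDC2s against cDC1s (1.29 ± 0.53, adjusted p = 0.0612) or between the cDC2 subsets (0.79 ± 0.41, adjusted p = 0.235). The call rested on few reads, 4 and 9 in the cDC1 libraries, and was lost without cDC1 replicate 1 (1.55, adjusted p = 0.0407) and with DESeq2 (adjusted p = 0.014).

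Genes of CD4's T cell setting did not move as a group. Of 13 tested, 3 were higher and 1 was lower in spleen T-bet+ cDC2s than in cDC1s, and 2 were higher and 2 lower in T-bet- cDC2s. *Cd8a*, the other coreceptor and a known marker of splenic cDC1s, was opposite to *Cd4*, at 904 to 1167 CPM in cDC1s, 10.3 to 13.8 CPM in T-bet- cDC2s and 2.02 to 4.36 CPM in T-bet+ cDC2s. *Lck*, the kinase that binds the tail of CD4 in T cells, was at 0 in all 3 spleen cDC1 libraries and at 0.626 to 2.68 CPM in T-bet- and 0.317 to 2.87 CPM in T-bet+ cDC2s. Between the cDC2 subsets, *Tcf7* (2.79 ± 0.46, adjusted p = 0.00853) and *Satb1* (1.72 ± 0.36, adjusted p = 0.0248), transcription factors best known in T cell development, were higher and *Cd8a* was lower (-1.96 ± 0.30, adjusted p = 0.00548) in T-bet+ cDC2s.

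*Esam* (ENSMUSG00000001946.14, chr9:37528078-37538319, plus strand) had 20.4, 13.5 and 21.5 CPM in spleen cDC1s, 45.3, 48.3 and 47.6 CPM in T-bet- cDC2s, and 131, 111 and 153 CPM in T-bet+ cDC2s. The 3 spleen groups were in order without overlap, T-bet+ cDC2s highest. The log2 fold change was 1.48 ± 0.24 between T-bet+ and T-bet- cDC2s (adjusted p = 0.00787), 2.84 ± 0.25 between T-bet+ cDC2s and cDC1s (adjusted p = 6.11e-05) and 1.35 ± 0.24 between T-bet- cDC2s and cDC1s (adjusted p = 0.0043). T-bet- cDC2s therefore had the gene at a middle level, and it did not mark 1 cDC2 subset by presence or absence.

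In MLN, *Esam* had 45.8, 134 and 119 CPM in cDC1s, 144 and 119.9 CPM in T-bet- cDC2s, and 63.0 and 125 CPM in T-bet+ cDC2s. All 3 MLN groups overlapped one another. Log2 fold changes were -0.53 ± 0.51 between the cDC2 subsets (adjusted p = 0.825), -0.04 ± 0.47 for T-bet+ cDC2s against cDC1s (adjusted p = 0.976) and 0.49 ± 0.46 for T-bet- cDC2s against cDC1s (adjusted p = 0.628). By group mean, MLN T-bet- cDC2s (132 ± 17.4 CPM, SD, n = 2) and spleen T-bet+ cDC2s (132 ± 21.5 CPM, n = 3) led, MLN cDC1s (99.7 ± 47.3 CPM, n = 3) and MLN T-bet+ cDC2s (93.9 ± 43.7 CPM, n = 2) followed within their spread, and spleen T-bet- cDC2s (47.1 ± 1.59 CPM, n = 3) and spleen cDC1s (18.4 ± 4.35 CPM, n = 3) were lowest. Spleen T-bet- cDC2s lay below both MLN cDC2 groups and overlapped only the lowest MLN cDC1 library.

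Endothelial and platelet transcripts were read beside *Esam*. The sum of 10 endothelial markers was 20.6 to 29.2 CPM in spleen cDC1s, 5.55 to 25.8 CPM in T-bet- cDC2s and 5.81 to 6.30 CPM in T-bet+ cDC2s. *Tek*, *Cldn5* and *Robo4* were at 0 in all spleen cDC2 libraries. In MLN the sum was 13.9 to 22.0, 27.7 to 42.2 and 5.83 to 12.6 CPM in the cDC1, T-bet- and T-bet+ groups, with *Kdr* at 25.9 to 39.7 CPM in T-bet- cDC2s. The sum of 8 platelet markers was 1.44 to 3.65, 16.1 to 35.0 and 11.5 to 21.2 CPM in the spleen cDC1, T-bet- and T-bet+ groups, most of it *Itgb3*, an integrin of many myeloid cells, with *Gp6* at 0 in all spleen libraries. None of the 3 endothelial and 4 platelet markers tested was called between the spleen cDC2 subsets. The part of these markers in the *Esam* levels of either tissue was not tested.

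No ATAC-seq window had *Esam* as its closest gene, and the 3 within 10000 bases lay beyond its end and were assigned to *Vsig2* and *Nrgn*. None of these was called between the cDC2 subsets. The nearest, 12798 bases after the *Esam* start, had 17.8 and 17.6 CPM in cDC1s, 11.5 and 11.6 in T-bet- cDC2s and 20.02 and 15.7 in T-bet+ cDC2s. T-bet- cDC2s were lowest with no overlap, and the T-bet+ against T-bet- log2 fold change was 0.63 ± 0.22 (adjusted p = 0.0448). Counted over the whole peak (chr9:37540512-37541174), it was called higher in the T-bet+ than the T-bet- subset (0.74 ± 0.20, adjusted p = 0.00389) and lower in T-bet- cDC2s than in cDC1s (-0.77 ± 0.20, adjusted p = 0.0011). Of 73293 peaks tested, 5318 were called in the first of these directions and 13157 in the second.

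The Notch pathway, known for its role in ESAM-bearing cDC2s, was read as a list of 28 genes, 26 of them tested. Between the spleen cDC2 subsets 1 was higher and 1 lower in T-bet+ cDC2s, with a median log2 fold change of -0.33 beside -0.01 over all genes. The higher one was *Dtx1*, a known Notch target, at 302 to 334 CPM in T-bet+ cDC2s, 6.17 to 8.72 CPM in T-bet- cDC2s and 0.203 to 0.580 CPM in cDC1s (5.36 ± 0.33 between the cDC2 subsets, adjusted p = 4.43e-05). The lower one was *Dtx4* (-1.28 ± 0.32, adjusted p = 0.0494). The receptor gene *Notch2* was called in no spleen comparison, at 81.7 to 101 CPM in T-bet+ cDC2s, 88.9 to 124 CPM in T-bet- cDC2s and 69.1 to 205 CPM in cDC1s. In MLN T-bet+ cDC2s *Dtx1* was at 14.2 to 31.9 CPM, below every spleen T-bet+ library and above the 2.03 to 2.96 CPM of MLN T-bet- cDC2s. Of 13 relatives and partners of ESAM at cell junctions only 4 could be tested in spleen, and 1 was called between the cDC2 subsets: *F11r*, the junctional adhesion molecule JAM-A, went the other way from *Esam*, at 61.3 to 95.8 CPM in T-bet- and 15.0 to 20.8 CPM in T-bet+ cDC2s (-2.19 ± 0.35, adjusted p = 0.00747).

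*Cdh17* (ENSMUSG00000028217.11, chr4:11758147-11817895, plus strand) had 2.997, 6.13 and 3.43 CPM in spleen cDC1s, 0.723, 0.257 and 0 CPM in T-bet- cDC2s, and 56.3, 66.6 and 28.5 CPM in T-bet+ cDC2s. T-bet+ cDC2s were highest and T-bet- cDC2s lowest, with cDC1s between them and no overlap. The T-bet- values were 15, 5 and 0 counts, and a count of 0 in that library allows up to 0.113 CPM (3 counts). Its log2 fold changes were 7.30 ± 0.93 between T-bet+ and T-bet- cDC2s (adjusted p = 0.00228), 3.59 ± 0.75 between T-bet+ cDC2s and cDC1s (adjusted p = 0.00869), and -3.71 ± 0.84 between T-bet- cDC2s and cDC1s (adjusted p = 0.0145). The last call was lost without T-bet- replicate 2 (adjusted p = 0.056), without cDC1 replicate 2 (adjusted p = 0.0556) and when T-bet+ libraries were left out of the fit (adjusted p = 0.0707). The study named *Cdh17* among genes of T-bet+ cDC2s from these same libraries, so its direction here is no independent evidence. From the same ATAC-seq libraries it also described closed chromatin at *Cdh17* in T-bet- cDC2s, so the window results below are not independent either.

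In MLN, *Cdh17* had 6.49, 2.17 and 4.92 CPM in cDC1s, 0.841 and 1.11 CPM in T-bet- cDC2s, and 44.6 and 24.1 CPM in T-bet+ cDC2s. The order of the 3 groups was that of spleen, again with no overlap, as for 40.9% of all genes between these MLN cDC2 groups of 2. For T-bet+ against T-bet- cDC2s, its log2 fold change was 5.10 ± 0.65 and missed the threshold (adjusted p = 0.0929), and over the alternatives its adjusted p ran from 8.64e-14 (DESeq2) to 0.736. The lead of T-bet+ cDC2s was alike in rank in both tissues, at 50.5 ± 19.7 CPM (SD, n = 3) in spleen and 34.4 ± 14.5 CPM (n = 2) in MLN, which overlapped, as did the cDC1s at 4.19 ± 1.70 and 4.53 ± 2.19 CPM (n = 3 each). Against MLN cDC1s it was higher in T-bet+ cDC2s (2.94 ± 0.50, adjusted p = 0.0145). That call was lost without T-bet+ replicate 1 (adjusted p = 0.0846), without cDC1 replicate 3 (adjusted p = 0.0612) and with the GC-window term (adjusted p = 0.0939). In T-bet- cDC2s against cDC1s the value was -2.17 ± 0.56 (adjusted p = 0.0657). This difference was called, lower in T-bet- cDC2s, with DESeq2 (-2.20, adjusted p = 0.0019), with no filter on low counts (adjusted p = 0.000705) and without cDC1 replicate 2 (-2.51, adjusted p = 0.0352).

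Because B cells and intestinal epithelium carry cadherin-17, their transcripts were read as well. The sum of 12 B cell markers was 633 to 736, 586 to 686 and 639.6 to 696 CPM in the spleen cDC1, T-bet- and T-bet+ groups, most of it *Ighm*. *Pax5*, a transcription factor that defines B cells, was at most 0.0514 CPM in spleen. Of 9 tested B cell markers, *Ms4a1*, *Blk* and *Cr2* were higher and *Cd79b* was lower in the T-bet+ than the T-bet- subset, with a median log2 fold change of 0.66, and their part in the *Cdh17* result was not tested. The sum of 7 intestinal markers was 2.39 to 3.87, 2.70 to 10.9 and 9.76 to 14.8 CPM, most of it *Epcam*, with *Cdx2* at 0 in cDC1s and T-bet- cDC2s and at most 0.158 CPM in T-bet+ cDC2s. Neither intestinal marker tested was called between the spleen cDC2 subsets.

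*Cdh17* was the only one of the 5 genes with windows called between the cDC2 subsets: 4 of its 13 windows, and so 4 of 45 tested at all 5 genes, were called higher in T-bet+ cDC2s, beside 3.92% of all windows called higher and 6.28% called either way. All 4 lay in 1 intronic peak, whose windows are centred 4947 to 5712 bases after the start (chr4:11762868-11764145), so they are neighbours and not independent. The strongest window (chr4:11763395-11763544, mm10, plus strand) and the window over the start site (chr4:11758091-11758240) are printed. The first had the smallest adjusted p between the cDC2 subsets at this locus. The second is the nearest to the start and was called in no comparison. Capitals mark matches to the PU.1 motif AGGAAGT in both windows and to the Runx motif TGTGGTT in the start window.
Cdh17 intron window: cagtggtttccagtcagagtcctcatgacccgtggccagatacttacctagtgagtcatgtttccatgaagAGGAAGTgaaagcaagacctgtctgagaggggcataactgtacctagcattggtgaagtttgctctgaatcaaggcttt
Cdh17 start window: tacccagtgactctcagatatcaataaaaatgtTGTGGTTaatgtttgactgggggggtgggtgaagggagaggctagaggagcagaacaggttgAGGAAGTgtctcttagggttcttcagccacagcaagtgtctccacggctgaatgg
The intron window had 27.2 and 29.1 CPM in cDC1s, 9.99 and 10.0 in T-bet- cDC2s, and 34.0 and 37.5 in T-bet+ cDC2s. T-bet- cDC2s were lowest, and cDC1s were nearly as high as T-bet+ cDC2s although their transcript level was much lower. Log2 fold changes were 1.84 ± 0.20 between the cDC2 subsets (adjusted p = 5.26e-11), -1.49 ± 0.20 for T-bet- cDC2s against cDC1s (adjusted p = 7.29e-09) and 0.35 ± 0.18 for T-bet+ cDC2s against cDC1s (adjusted p = 0.14). The other 3 called windows of this peak had log2 fold changes of 1.63 to 1.94 between the cDC2 subsets.

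The start window of *Cdh17* was only weakly open, with 4.87 and 2.74 CPM in cDC1s, 3.33 and 1.11 in T-bet- cDC2s, and 4.57 and 6.06 in T-bet+ cDC2s. The cDC2 groups did not overlap, and the difference was not called (1.30 ± 0.39, adjusted p = 0.0165). Counted over the whole peak at the start site (chr4:11757092-11758385), it was called higher in the T-bet+ than the T-bet- subset (0.86 ± 0.20, adjusted p = 0.000764), as were 5318 of 73293 peaks tested. Further upstream, cDC1s were most open: the window 7604 bases before the start had 3.33 and 7.97 CPM in cDC1s and 0.105 to 0.247 in the 4 cDC2 libraries. Against the same cDC1s it was lower in both T-bet+ (-5.01 ± 0.62, adjusted p = 5.58e-10) and T-bet- cDC2s (-4.57 ± 0.60, adjusted p = 3.93e-09). In all, 3 windows were lower in T-bet+ cDC2s than in cDC1s and 7 were lower in the T-bet- subset, and none was higher, beside the 23.0% and 17.9% of all windows called in either direction. The 3 windows lower in T-bet+ cDC2s all lay before the start and put cDC1s first, unlike the RNA. The intron window printed above ranked the subsets as the RNA did, although T-bet+ cDC2s were not called against cDC1s there.

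**Figure D3:**
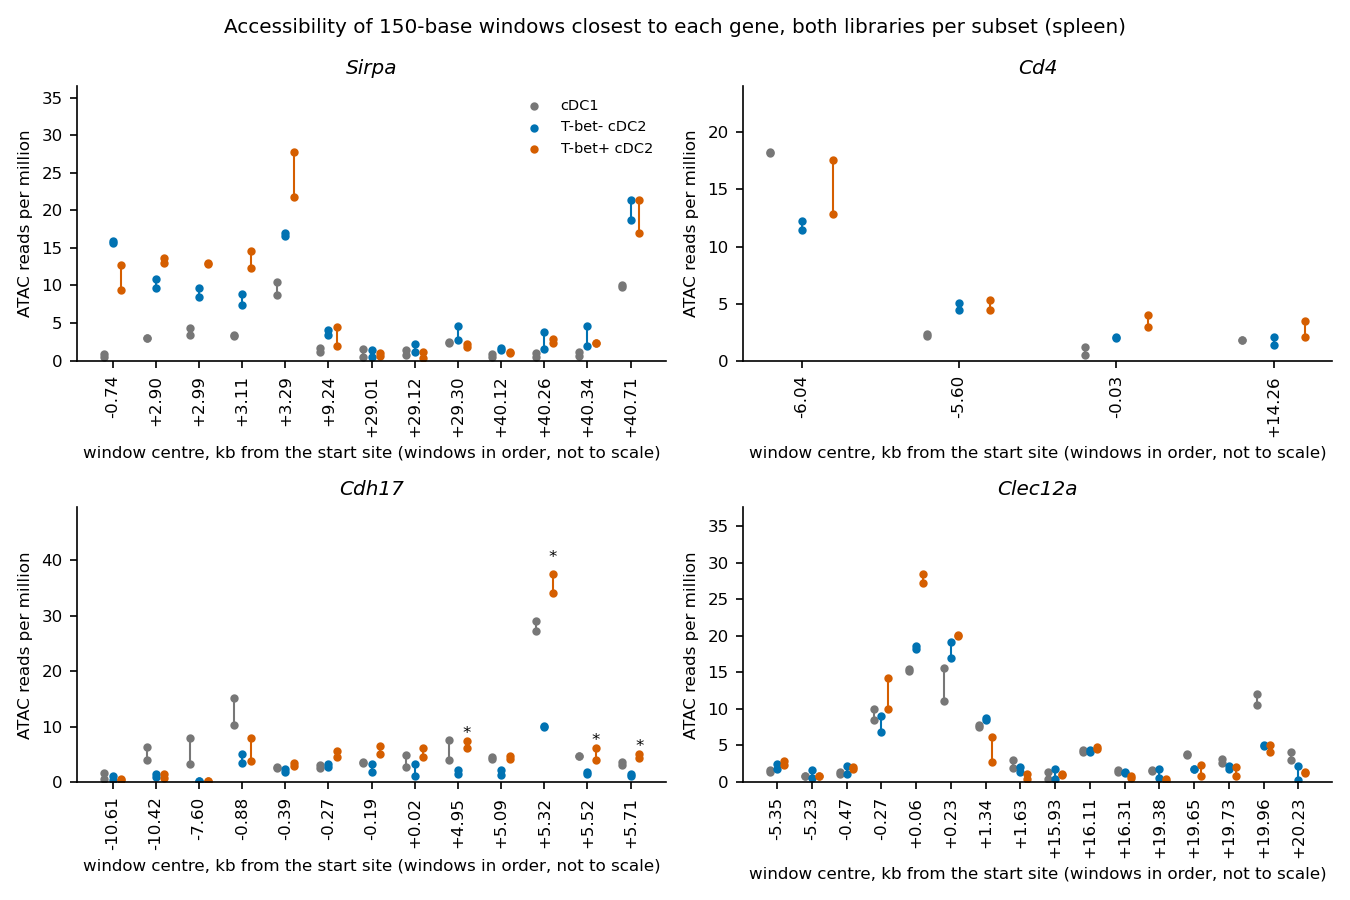
CPM (ATAC-seq, both libraries of each spleen subset as points) in the windows closest to *Sirpa*, *Cd4*, *Cdh17* and *Clec12a*, in order along each gene, with distance from the start site in kilobases as tick labels and asterisks over windows called between the cDC2 subsets. The called windows are those of the *Cdh17* intronic peak, where T-bet- cDC2s lie lowest.

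Other cadherins and catenins were few in these cells. Of 16 genes, 9 could be tested in spleen, and 1 was called between the cDC2 subsets: *Ctnnd1* (p120-catenin, which binds classical cadherins, of which cadherin-17 is not one) was at 4.80 to 6.36 CPM in T-bet- and 0.158 to 0.825 CPM in T-bet+ cDC2s (-3.68 ± 0.58, adjusted p = 0.00722). E-cadherin, *Cdh1*, was at most 0.0484 CPM in spleen cDC1s, 1.23 to 5.01 CPM in T-bet- cDC2s and 0.225 to 1.08 CPM in T-bet+ cDC2s. It was called higher in both cDC2 subsets than in cDC1s. By mean, *Cdh1* was thus highest in the subset in which *Cdh17* was lowest, and it was not called between the cDC2 subsets.

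*Clec12a* (ENSMUSG00000053063.11, chr6:129342691-129365303, plus strand) had 218, 194 and 246 CPM in spleen cDC1s, 243, 205 and 193 CPM in T-bet- cDC2s, and 10.1, 6.60 and 6.02 CPM in T-bet+ cDC2s. cDC1s and T-bet- cDC2s overlapped, and every T-bet+ library lay far below both. The log2 fold change was -4.82 ± 0.27 between T-bet+ and T-bet- cDC2s (adjusted p = 4.43e-05), -4.85 ± 0.27 between T-bet+ cDC2s and cDC1s (adjusted p = 5.12e-06), and -0.04 ± 0.23 between T-bet- cDC2s and cDC1s (adjusted p = 0.937). In these spleen libraries *Clec12a* RNA therefore set T-bet+ cDC2s apart from the other 2 subsets and did not set T-bet- cDC2s apart from cDC1s. The study listed *Clec12a* for T-bet- cDC2s from these same libraries, so the direction between the cDC2 subsets is no independent evidence. Its claim also rested on other samples: single-cell RNA data, and flow cytometry of cDC2s that found the protein only on the T-bet- subset.

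In MLN, *Clec12a* had 229, 95.4 and 156 CPM in cDC1s, 72.1 and 88.2 CPM in T-bet- cDC2s, and 18.0 and 14.3 CPM in T-bet+ cDC2s. The order was cDC1s, T-bet- cDC2s, T-bet+ cDC2s with no overlap, although the lowest cDC1 library stood close to the higher T-bet- one. The value between the cDC2 subsets, -2.34 ± 0.43, missed the threshold with edgeR (adjusted p = 0.194), and with DESeq2 the adjusted p was 0.000145. Against cDC1s it was lower in T-bet+ cDC2s (-3.29 ± 0.44, adjusted p = 0.00608), and in T-bet- cDC2s the value was -0.95 ± 0.39 (adjusted p = 0.224).

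Monocyte transcripts moved beside *Clec12a*, a gene that monocytes are known to express. The sum of 9 monocyte markers was 461 to 645 CPM in spleen cDC1s, 377 to 644 CPM in T-bet- cDC2s and 93.8 to 105 CPM in T-bet+ cDC2s, and in MLN 188 to 445, 303 to 404 and 62.2 to 67.2 CPM. Of 7 tested, 5 were lower in the T-bet+ than the T-bet- subset of spleen and none was higher. Most of the sum in spleen was *Treml4* and *Ccr2*, while *Ly6c1* (at most 0.242 CPM), *Vcan* (at most 0.706 CPM) and *Fcgr1* (5.36 to 7.92 CPM in T-bet- cDC2s and at most 0.832 CPM in the other 2 subsets) were low. The sort gated against Ly6C and CD64 (*Fcgr1*). In the study's separate single-cell sort, gated against the same 2 proteins, some Ly6C+ monocytes were still found. The sum of 10 red pulp macrophage markers was 216 to 308, 1232 to 1746 and 513 to 595 CPM in the spleen cDC1, T-bet- and T-bet+ groups, with 7 of 10 lower in the T-bet+ than the T-bet- subset, and in MLN 82.7 to 232, 1452 to 2478 and 397 to 405 CPM. By group mean *Clec12a* ran from spleen cDC1s (219 ± 26.0 CPM, SD, n = 3), spleen T-bet- cDC2s (213 ± 26.0 CPM, n = 3) and MLN cDC1s (160.1 ± 66.7 CPM, n = 3), which overlapped, to MLN T-bet- cDC2s (80.2 ± 11.4 CPM, n = 2), MLN T-bet+ cDC2s (16.2 ± 2.58 CPM, n = 2) and spleen T-bet+ cDC2s (7.56 ± 2.19 CPM, n = 3), which did not. The part of these markers in the *Clec12a* result was not tested.

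Chromatin at *Clec12a* differed from place to place. The gene had 16 windows, 15 of them tested, and none was called between the cDC2 subsets. The start site used here is the most upstream one of a protein-coding transcript in the basic set of GENCODE. The window over it (chr6:129349951-129350100, mm10, plus strand) is printed because it was most open where the RNA was lowest. It held none of the 7 motifs searched, so no letters are in capitals.
Clec12a start window: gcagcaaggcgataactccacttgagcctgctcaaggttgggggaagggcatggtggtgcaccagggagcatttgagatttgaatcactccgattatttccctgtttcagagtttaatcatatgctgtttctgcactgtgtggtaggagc
It had 15.2 and 15.4 CPM in cDC1s, 18.1 and 18.5 in T-bet- cDC2s, and 27.2 and 28.4 in T-bet+ cDC2s. The groups did not overlap, and T-bet+ cDC2s were highest. Its log2 fold change was 0.60 ± 0.19 between the cDC2 subsets, not called (adjusted p = 0.0272), and 0.86 ± 0.20 for T-bet+ cDC2s against cDC1s, called (adjusted p = 0.000285). The next window, 228 bases after the start used here, lies within the RefSeq promoter of this gene. It had 19.1 and 17.01 CPM in T-bet- cDC2s and 20.02 and 20.07 in T-bet+ cDC2s. The cDC2 subsets differed little there (0.15 ± 0.20, adjusted p = 0.719). The whole peak over both windows (chr6:129349460-129350532) was not called between the cDC2 subsets (0.44 ± 0.15, adjusted p = 0.0266). It was called higher in T-bet+ cDC2s than in cDC1s (0.60 ± 0.15, adjusted p = 0.000685). A window 1343 bases after the start had 7.48 and 7.84, 8.75 and 8.50, and 6.09 and 2.72 CPM in the cDC1, T-bet- and T-bet+ groups. There the T-bet+ libraries were lowest, as in RNA, and the window was not called (-0.97 ± 0.30, adjusted p = 0.0219). The whole peak (chr6:129351147-129351666) was called lower (-0.97 ± 0.26, adjusted p = 0.00274), as were 4171 of 73293 peaks tested. That peak was also lower in T-bet+ cDC2s than in cDC1s (-1.09 ± 0.26, adjusted p = 0.000231) and was not called between T-bet- cDC2s and cDC1s (-0.11 ± 0.24, adjusted p = 0.747). Against cDC1s, 1 *Clec12a* window was higher and 3 were lower in T-bet+ cDC2s, and 1 was lower in T-bet- cDC2s, the one at 19961 bases after the start, which was lower in both. These counts, out of 15, stand beside 23.0% and 17.9% of all windows called in either direction for T-bet+ and T-bet- cDC2s.

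*Clec12a* lies in a cluster of lectin genes of the NK gene complex, and its neighbours did not move as one. Of 9 other genes of the cluster tested, 1 was higher and 3 were lower in the T-bet+ than the T-bet- subset of spleen. *Klrk1*, encoding NKG2D, was lower (-3.98 ± 0.39, adjusted p = 0.000632), as were *Clec9a* (-5.55 ± 0.72, adjusted p = 0.00251), a receptor for actin of dead cells and a marker of cDC1s, and *Clec7a* (-2.34 ± 0.37, adjusted p = 0.00676), the beta-glucan receptor dectin-1. *Klrd1* (CD94) was higher (0.84 ± 0.19, adjusted p = 0.0309). Their levels in cDC1s differed: *Clec9a* was at 148 to 205 CPM in cDC1s, 1.95 to 9.20 CPM in T-bet- and 0.0415 to 0.263 CPM in T-bet+ cDC2s, while *Clec7a* was at 70.5 to 88.7, 1506 to 3579 and 282 to 599 CPM. So of these lectins *Clec12a* was shared by cDC1s and T-bet- cDC2s, *Clec9a* was highest in cDC1s and *Clec7a* in T-bet- cDC2s. Of 8 genes that signal below inhibitory lectins, such as *Ptpn6* and *Inpp5d*, 0 were called between the cDC2 subsets.

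**Figure D4:**
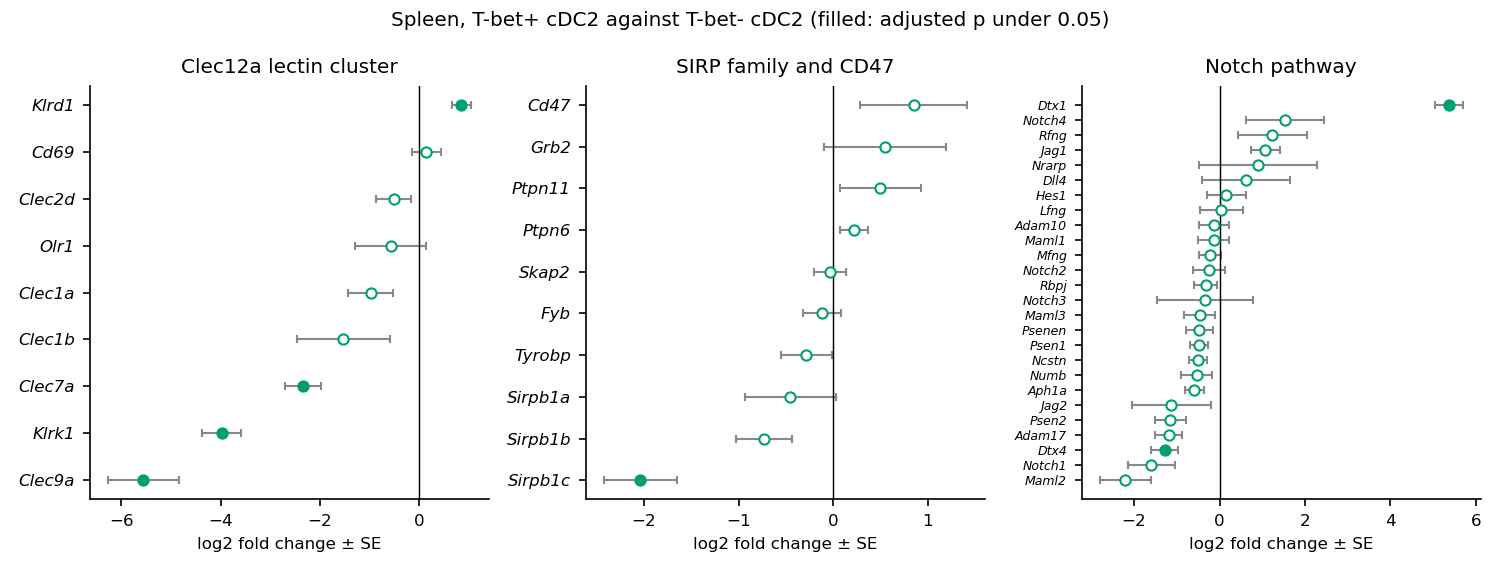
Log2 fold change ± SE (edgeR) of spleen T-bet+ against T-bet- cDC2s for each tested gene of 3 lists: the lectin cluster around *Clec12a*, the SIRP family with CD47, and the Notch pathway. Filled points have an adjusted p under 0.05: *Klrk1*, *Clec9a* and *Clec7a* lie below 0 and *Klrd1* above, *Sirpb1c* lies below 0, and of the Notch genes *Dtx1* lies far above 0 and *Dtx4* below.

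Between tissues, the 5 genes were compared in all 16 libraries in 1 fit, and tissue cannot be told apart from any difference in preparation between the organs. In T-bet- cDC2s, 3 of 5 were called (5.95% of all genes): *Cd4* (-1.50 ± 0.40, adjusted p = 0.0425) and *Clec12a* (-1.41 ± 0.34, adjusted p = 0.0257) were lower (1.59% of all genes) and *Esam* (1.49 ± 0.39, adjusted p = 0.0374) was higher in MLN (4.36%). DESeq2 called the same 3 (13.9% of all genes). Marker sums of T-bet- cDC2s also differed between the tissues. From spleen to MLN, the sum of 9 cDC2 markers went from 2521 to 2619 CPM to 639.5 to 828 CPM, and that of 10 neutrophil markers from 209.9 to 231 CPM to 49.6 to 68.2 CPM. The sum of 15 T cell markers went from 23.1 to 36.4 CPM to 158 to 219 CPM, and that of 10 endothelial markers from 5.55 to 25.8 CPM to 27.7 to 42.2 CPM. The monocyte and red pulp macrophage sums overlapped between the tissues. The part of these markers in the tissue differences was not tested. Each call was close to the threshold: over 22 alternatives *Cd4* kept it in 11, *Esam* in 15 and *Clec12a* in 18, and all 3 lost it without either MLN T-bet- library (adjusted p of 0.11 to 0.285) and without spleen T-bet- replicate 1 or 2 (0.0665 to 0.0987). Without spleen T-bet- replicate 3, *Cd4* (adjusted p = 0.0574) and *Esam* (adjusted p = 0.0667) lost it. *Cd4* also lost it without any 1 of the 3 spleen T-bet+ libraries, without spleen cDC1 replicate 1 or 2 and without MLN cDC1 replicate 3 (adjusted p of 0.0544 to 0.0591), and *Esam* without spleen T-bet+ replicate 1 or 2 (0.0526 and 0.0502). In T-bet+ cDC2s, 0 of 5 were called by edgeR (5.09% of all genes) and 1, *Clec12a*, by DESeq2 (16.1%), and the values ran from -1.17 ± 0.64 for *Sirpa* to 1.10 ± 0.32 for *Clec12a* (adjusted p = 0.0621). In cDC1s, *Esam* alone was called (11.7% of all genes), higher in MLN (7.75%) by 2.43 ± 0.37 (adjusted p = 0.00204), with *Cd4* next at -1.11 ± 0.35 (adjusted p = 0.0537), and DESeq2 called both (21.7%).

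Whether the subset differences themselves changed with tissue was tested directly, as the MLN log2 fold change minus the spleen one. None of the 5 was called for T-bet+ against T-bet- cDC2s (1 gene of 16795, 0.00595%), and the values were 2.51 ± 0.46 for *Clec12a* (adjusted p = 0.331), -1.98 ± 0.56 for *Esam* (adjusted p = 0.779), -2.17 ± 1.09 for *Cdh17* (adjusted p = 0.949), 0.62 ± 0.54 for *Cd4* (adjusted p = 0.949) and 0.29 ± 0.87 for *Sirpa* (adjusted p = 0.989). DESeq2 called *Clec12a* (2.57, adjusted p = 0.000659) among 0.251% of all genes. For T-bet+ cDC2s against cDC1s, *Esam* came closest with edgeR (-2.92 ± 0.55, adjusted p = 0.0643) and passed with DESeq2 (-2.84, adjusted p = 0.000377), while 15 genes (0.0893%) were called in all by edgeR and 1.39% of genes by DESeq2, *Clec12a* among them (1.63, adjusted p = 0.0445). For T-bet- cDC2s against cDC1s, 0 of 5 were called by either tool (0.0357% of all genes by edgeR and 0.652% by DESeq2). The order of *Esam* among the spleen subsets is thus seen in that tissue's own tests, and the test between tissues did not pass with edgeR.

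Set side by side per kilobase of exon, the surface repertoire of each spleen subset differed in rank. In T-bet+ cDC2s the mean levels were 182 CPM per kb for *Sirpa*, 95.2 for *Cd4*, 45.9 for *Esam*, 11.3 for *Cdh17* and 1.37 for *Clec12a*. In T-bet- cDC2s they were 209 CPM per kb for *Sirpa*, 106 for *Cd4*, 38.6 for *Clec12a*, 16.4 for *Esam* and 0.073 for *Cdh17*. In cDC1s *Clec12a* led with 39.7 CPM per kb, followed by *Esam* (6.44), *Cd4* (5.30), *Sirpa* (1.44) and *Cdh17* (0.936).

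The levels of the 5 genes over the 16 libraries were compared with one another and with those of 8097 genes with a mean log2 CPM over 3, as a description over libraries that share subsets and tissues. *Sirpa* and *Cd4* went together (Pearson r = 0.97), *Cdh17* and *Clec12a* went opposite ways (r = -0.76), as did *Esam* and *Clec12a* (r = -0.64), and *Cdh17* had almost no relation to *Sirpa* (r = -0.03) or *Cd4* (r = 0.00). The 5 genes most like *Sirpa* were *Clec4a2*, *Klra17*, *Rgl1*, *Fcer1g* and *Itgam* (r from 0.97 to 0.99), and those most like *Cd4* were *Emb*, *RP24-500I24.7*, *Adgre1*, *Gapt* and *Itgam* (r from 0.98 to 0.99). *Itgam* encodes CD11b, by which the cDC2s were sorted. Those most like *Esam* were *Eno3*, *Rogdi*, *St14*, *Fam110a* and *Mif4gd* (r from 0.92 to 0.94). For *Cdh17* they were *Sept1*, *Kif22*, *Tpx2*, *Casc5* and *Prc1* (r from 0.90 to 0.93), 4 of which encode proteins of the mitotic spindle or chromosomes, and for *Clec12a* they were *Plpp2*, *Psap*, *Tbxas1*, *Plin2* and *Aldh3b1* (r from 0.94 to 0.97), *Psap* and *Plin2* being genes of lysosomal lipid breakdown and lipid droplets.

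Other cDC2 genes gave the setting for the 5. Of 23 tested in spleen, 14 were higher and 3 lower in T-bet+ cDC2s, and 18 higher and 1 lower in T-bet- cDC2s, than in cDC1s, with medians of 2.78 and 4.61. Between the cDC2 subsets 3 were higher in T-bet+ cDC2s (*Tbx21*, which the sort used, *Dtx1* and *Cd7*) and 10 were lower, among them *Mgl2* (-6.79 ± 0.36, adjusted p = 4.43e-05) and *Clec10a* (-6.34 ± 0.60, adjusted p = 0.000563), lectins of macrophages and dendritic cells, and *Csf1r* (-3.38 ± 0.25, adjusted p = 0.000139), the receptor of a macrophage growth factor. The median between the cDC2 subsets was -0.79 beside -0.01 over all genes. *Clec12a* was thus on the side of the larger group, *Esam* and *Cdh17* on that of the smaller, and *Sirpa* and *Cd4* on neither by the test. Of the other cell types read, the sum of 10 neutrophil markers was 24.7 to 40.3, 209.9 to 231 and 288 to 322 CPM in the spleen cDC1, T-bet- and T-bet+ groups (1 higher and 1 lower of 9 tested between the cDC2 subsets), that of 9 plasmacytoid dendritic cell markers 107 to 143, 147 to 198 and 115 to 140.2 CPM (1 of 7 higher), and that of 7 NK cell markers 1.11 to 3.70 CPM over all spleen libraries (0 of 2). Their part in the results was not tested.

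The motifs were searched on both strands in all 46 windows and, for comparison, in all 177956. A match is a run of letters and not a bound site. PU.1 (AGGAAGT) was found in 11 of the 46, 5 each at *Sirpa* and *Cdh17* and 1 at *Cd4*, beside 12.6% of all windows. Runx (TGTGGTT) was found in 5 (5.23% of all windows), C/EBP (TTGCNNAA) in 3 (5.89%), Rbpj (TGGGAAA), the DNA-binding partner of Notch, in 2 (3.76%), and T-box (AGGTGTNA, 1.92%), IRF (GAAANNGAA, 5.61%) and ROR (TAGGTCA, 1.57%) in 1 each. The 2 Rbpj matches were both at *Cdh17* and the T-box match was at *Sirpa*. In the promoter table from RefSeq (GRCm38.p6, the assembly of mm10, 250 bases before to 50 after the start) only *Clec12a* of the 5 was present, and its promoter held 1 C/EBP match, as did 10.8% of the 32851 promoters.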

How the data were processed

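RNA-seq and ATAC-seq of sorted mouse dendritic cells were taken from tables the authors deposited. For RNA, the authors used HISAT2 2.1.0 with the mm10 genome, kept uniquely aligned reads (SAMtools 1.9) and deposited raw counts per gene symbol, and the kit does not mark strand. For ATAC-seq, the authors aligned with Bowtie2 2.2.5, called peaks with MACS2 2.1.1.20160309 on all libraries together and deposited raw counts per peak and per 150-base window. The deposited position files also carry a score (constant, not used) and the −log10 p of each summit (not used). Because only unique reads were kept, genes with close copies may be undercounted.

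Here, raw counts were tested with edgeR 4.0.16 (R 4.3.3; TMM, filterByExpr, quasi-likelihood, Benjamini-Hochberg over all genes or windows), with the 9 spleen, 7 MLN or 6 ATAC-seq libraries in 1 fit each and all 16 RNA libraries for comparisons between tissues. RNA was called at an adjusted p under 0.05, and windows at an adjusted p under 0.01 and a log2 fold change beyond 0.5, each assigned to the closest GENCODE M21 gene within 50000 bases. SE is the absolute log2 fold change over the root of the F statistic. Fits were tested on simulated data. RNA depth was 20993220 to 29006549 counts and ATAC-seq depth 7270164 to 10081555, and floors (3 counts) cover counting error only. The 5 genes, gene lists and tests were chosen with earlier results of these data known. Named beside the 5 genes were the 5 genes most alike in level to each and, per list and spleen comparison, up to 4 called genes with the smallest adjusted p. Genes named among cell type markers were chosen after their values were seen. The 2 MLN T-bet- libraries are numbered 1 and 2 here, as in the replicate labels, but their names in the count table end in 2 and 3. Which number would pair them with other MLN libraries is not given in the sources used here. Pairing was checked by the correlation of deviations from group means. Same-numbered spleen T-bet+ and cDC1 libraries deviated together in all 3 pairs (0.18 to 0.43), and those with T-bet- cDC2s in none (-0.74 to -0.07). Across different numbers, spleen T-bet+ and cDC1 libraries ran from -0.40 to 0.17. Spleen T-bet- and cDC1 libraries of different numbers ran from -0.52 to 0.82, the highest being above any same-numbered spleen pair. In MLN, with at most 2 pairs, correlations were -0.14 to 0.66 by label and -0.01 to 0.66 by name. Alternatives were DESeq2 1.42.0, other scaling, filters, dispersion and block terms, fits of the 2 compared subsets, whole peaks and leaving out each library. Values of 2 of the marker genes are not reported here, although the sums over their lists hold them.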

Additional observations from a re-analysis of the deposited data

Results flagged for a closer look

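The difference between tissues in *Clec12a* stood out because the change in level from spleen to MLN went opposite ways in the cDC2 subsets. Both MLN T-bet+ libraries (18.0 and 14.3 CPM) lay above all spleen T-bet+ libraries (6.02 to 10.1 CPM), and both MLN T-bet- libraries (72.1 and 88.2 CPM) lay below all spleen T-bet- libraries (193 to 243 CPM). The share of all genes with such opposite shifts was not counted. The MLN log2 fold change of T-bet+ against T-bet- cDC2s minus that of spleen was 2.51 ± 0.46, with an adjusted p of 0.331 by edgeR and 0.000659 by DESeq2.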

How the results depend on the processing

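In spleen, the calls of *Esam*, *Cdh17* and *Clec12a* between the cDC2 subsets held in 18 of 18, 17 of 17 and 18 of 18 alternatives. *Sirpa* there ran from -0.45 to 0.29 when 1 library was left out, and *Cd4* was 0.022 with the GC-window term, which was added after the data were seen, as were the tests between tissues against cDC1s. *Clec12a* in spleen T-bet- cDC2s against cDC1s ran from -0.14 to 0.051 without 1 library.

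In MLN, where 2 libraries a group limit the test, the number of the 5 genes called between the cDC2 subsets was 0, but 2 with DESeq2, 2 with no filter, 1 with the newer quasi-dispersion, 1 with only the 2 compared subsets and 2 with a replicate block by library name. That block gave -0.34 for *Sirpa* and -0.32 for *Cd4*, called *Cdh17* (adjusted p = 0.00285) and *Clec12a* (0.0134), as well as *Cdh17* in T-bet- cDC2s against cDC1s (0.0117), and called 130, 2440 and 2477 genes in all in the 3 MLN comparisons, against 0, 952 and 885 with no block and 0, 539 and 515 with the block by label. In MLN no pairing could be established. Without 1 library *Sirpa* and *Cd4* between the MLN cDC2 subsets ran from -0.75 to 0.62 and from -0.50 to 1.04. *Esam* in T-bet+ cDC2s against cDC1s was 0.15 under either replicate block, 0.45 with the GC-window term and -0.61 to 0.39 without 1 library. A term for library class by whole-transcript GC could not be fitted in MLN, since the class was the T-bet+ group.

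Between tissues, the genes called in T-bet+ cDC2s were 1 with DESeq2, 2 with no filter, 1 with at least 10 counts in every library and 0 to 1 without 1 library. In T-bet- cDC2s 5 were called with no filter and 0 to 3 without 1 library. In cDC1s 2 were called with DESeq2, 3 with no filter, 2 with the newer quasi-dispersion, 2 with the replicate block and 1 to 3 without 1 library, and *Cdh17* ran from -0.31 to 0.45. For the difference between tissues in T-bet+ against T-bet- cDC2s, 1 was called with DESeq2 and 2 with no filter, and without 1 library *Sirpa* ran from -0.56 to 0.79 and *Cd4* from -0.36 to 1.17. For T-bet+ cDC2s against cDC1s 2 were called with DESeq2, 2 with no filter and 0 to 2 without 1 library, with *Sirpa* from -1.10 to 0.82 and *Cd4* from -0.70 to 0.83. For T-bet- cDC2s against cDC1s *Sirpa* ran from -0.95 to 0.53 and *Cd4* from -0.58 to 0.031.

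Of windows, 10 were called between the cDC2 subsets at an adjusted p under 0.05 with no fold limit, 2 of 36 with DESeq2 and 7 with the newer quasi-dispersion. In T-bet+ cDC2s against cDC1s 8 of 26 were called with at least 10 counts in every library (20675 of 93281 over all windows) and 9 of 17 as whole peaks (26671 of 73293 over all peaks). In T-bet- cDC2s against cDC1s 9 of 17 were called as whole peaks (22434 of 73293 over all peaks) and 8 to 18 windows without 1 library. For the spleen T-bet+ and cDC1 libraries, whose numbers went together, the replicate block kept all 5 calls and called 1920 genes against 2613. It also left 3 of 5 and 4 of 5 called in the other spleen comparisons, as without it, while genes called in all between the spleen cDC2 subsets went from 774 to 356.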
